A study of Mus musculus with 8 samples.

Results

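The glutamate and GABA receptor genes are 42 of the 21887 protein-coding genes on mouse chromosomes 1 to 19, X and Y. They were chosen by symbol, as genes whose names begin with Gria, Grid, Grik, Grin, Grm or Gabr followed by a digit or by a subunit letter and a digit. Of these, 26 encode glutamate receptor subunits and 15 encode GABA-A receptor subunits. The remaining gene, Grid2ip, encodes delphilin, a scaffold protein that binds a delta receptor and is not itself a receptor, and it is kept because the symbol rule includes it. The symbol rule uses no measured value, but the gene family was chosen with earlier results of these data known.

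Glutamate is the main excitatory transmitter of the brain, and it acts on ion channels of the AMPA, kainate and NMDA families and on metabotropic receptors coupled to G proteins; the delta subunits belong to the same channel family. GABA is the main inhibitory transmitter, and GABA-A receptors are chloride channels built from alpha, beta, gamma and other subunits, with the rho subunits known best from the retina. Ezh2 is the enzyme of Polycomb repressive complex 2 that trimethylates lysine 27 of histone H3 (H3K27me3), a mark found over genes that are kept silent in a lineage, and Runx1 is a transcription factor of blood stem and progenitor cells.

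The cells were EML_C1, a mouse haematopoietic progenitor line grown with stem cell factor, labelled as strain C57BL/6 at passage 4 to 5. Chromatin immunoprecipitation and sequencing was done with antibodies to Ezh2, H3K27me3 and Runx1, with 2 replicates each, and all libraries came from the same untreated line. Chromatin for Ezh2 and Runx1 was fixed in 2 mM DSG for 60 min and then in 1% formaldehyde for 60 min, while that for H3K27me3 was fixed in 1% formaldehyde for 10 min. The 2 input libraries, 1 for Ezh2 and Runx1 and 1 for H3K27me3, were not analysed here. The labels do not state whether the replicates of an antibody are separate cultures, and differences between them may be of technical origin. No RNA was measured, so whether these genes were silent, or whether the line expressed its blood markers, could not be checked.

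The deposited data are 6 peak lists, and read totals are unknown. The lists held 178354 and 159007 peaks for Ezh2, 220455 and 178423 for H3K27me3, and 64059 and 66153 for Runx1 in replicates 1 and 2. Fold enrichment of a peak is the value of the authors' peak caller. Folds of the narrow peaks of Ezh2 and Runx1 and of the broad peaks of H3K27me3 are not on 1 scale. A gene is called at an end where the same window, 1 kb either side of an end, holds a peak of both replicates, and a region is a merged stretch with peaks of both replicates. No test was run on these counts; each is given beside the share of all protein-coding genes called by the same rule.

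Promoter sequences were available for 28 of the 42 genes, as 36 stretches of 300 bases that run from 250 bases before to 50 after a transcript start (RefSeq, GRCm38.p6, which has the coordinates of mm10). The 4 shown here span the range that the results below turn on, with CpG dinucleotides in capitals. The first is Grin1, the subunit that every NMDA receptor needs (chr2:25319138-25319437, minus strand, 33 CpG, 60.7% G and C), which carried both Ezh2 and H3K27me3 peaks. The second is Grik3, a kainate subunit (chr4:125490446-125490745, plus strand, 50 CpG, 82.0% G and C), which carried no peak although its gene is marked on both sides. The third is Gabra2, a GABA-A alpha subunit (chr5:71095800-71096099, minus strand, 25 CpG, 70.0% G and C), with H3K27me3 alone. The last is Gabra6, the alpha subunit of cerebellar granule cells (chr11:42321023-42321322, minus strand, 2 CpG, 42.0% G and C), with no peak of any antibody.
Grin1: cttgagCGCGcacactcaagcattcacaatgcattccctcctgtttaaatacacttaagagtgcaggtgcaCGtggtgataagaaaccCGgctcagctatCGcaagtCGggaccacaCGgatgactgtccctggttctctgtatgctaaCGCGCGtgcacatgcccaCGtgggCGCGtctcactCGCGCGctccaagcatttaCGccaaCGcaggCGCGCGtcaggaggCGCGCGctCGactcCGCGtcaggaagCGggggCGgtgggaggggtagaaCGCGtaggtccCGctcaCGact
Grik3: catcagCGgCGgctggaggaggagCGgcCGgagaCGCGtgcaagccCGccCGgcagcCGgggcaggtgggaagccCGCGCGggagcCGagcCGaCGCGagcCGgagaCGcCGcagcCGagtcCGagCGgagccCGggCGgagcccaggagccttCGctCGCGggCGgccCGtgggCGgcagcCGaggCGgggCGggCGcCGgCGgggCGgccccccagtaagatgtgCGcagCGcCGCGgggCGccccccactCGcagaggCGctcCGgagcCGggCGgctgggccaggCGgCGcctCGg
Gabra2: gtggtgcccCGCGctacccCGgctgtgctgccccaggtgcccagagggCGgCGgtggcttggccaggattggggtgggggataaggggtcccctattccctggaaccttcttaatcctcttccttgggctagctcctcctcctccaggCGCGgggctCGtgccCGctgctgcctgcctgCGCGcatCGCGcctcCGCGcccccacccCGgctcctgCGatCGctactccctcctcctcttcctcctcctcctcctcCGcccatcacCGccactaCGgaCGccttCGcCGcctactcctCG
Gabra6: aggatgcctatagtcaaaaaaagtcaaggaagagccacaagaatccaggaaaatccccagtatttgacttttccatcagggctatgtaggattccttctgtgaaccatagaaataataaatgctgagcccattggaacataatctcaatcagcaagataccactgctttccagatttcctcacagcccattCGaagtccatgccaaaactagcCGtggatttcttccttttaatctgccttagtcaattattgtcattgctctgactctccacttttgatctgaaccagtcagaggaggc

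The H3K27me3 mark stood at the ends of most receptor genes, Ezh2 at few of them and Runx1 at none. H3K27me3 was called at an end of 25 of the 42 genes (59.5%), against 30.6% of all protein-coding genes. Ezh2 was called at 8 (19.0%), against 18.4% of all genes, a share near the background. Runx1 was called at 0 of the 42, against 45.3% of all genes. A peak in only 1 replicate stood at an end of 9 further genes for Ezh2 (12.4% of all genes), 5 for H3K27me3 (9.65%) and 1 for Runx1 (5.41%), which was Grin2d in replicate 1.

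Each gene with an Ezh2 call carried an H3K27me3 call too, and at the same end. This is near the background, since 88.6% of all 4034 genes with Ezh2 at an end also had the mark at an end. Both were present at 8 genes (19.0%), against 16.3% of all genes, or 16.0% where the same end was required. The mark without Ezh2 was seen at 17 genes (40.5%), against 14.2% of all genes, and Ezh2 without the mark at 0, against 2.10%. Among the 25 marked genes 32.0% also had Ezh2, whereas among all 6693 marked genes 53.4% did. No antibody was called at either end of 17 genes (40.5%), against 28.7% of all genes.

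**Figure D1:**
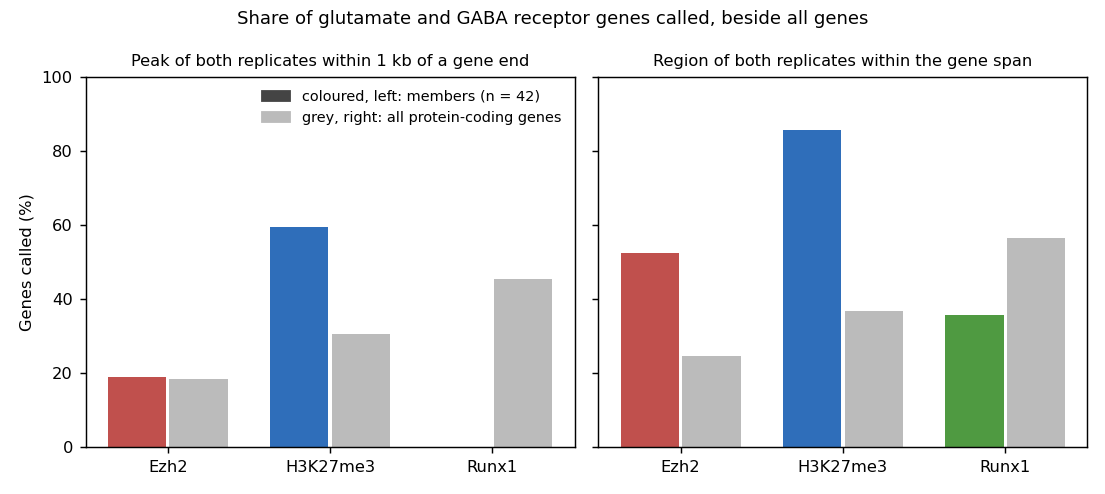
Percent of genes called for each antibody, at a gene end (left panel) and within the gene span (right panel); coloured bars on the left of each pair are the 42 receptor genes and grey bars on the right all 21887 protein-coding genes. The H3K27me3 bar of the receptor genes stands above the grey bar in both panels, at 59.5% and 85.7%, and the Runx1 bar at gene ends is at 0.

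The receptor genes are long, with a median span of 198.7 kb against 17.2 kb for all genes, so the same counts were split at 100 kb. This matches length only in part. The medians were 395.0 kb against 171.8 kb in the long class and 38.2 kb against 14.1 kb in the short one. Among the 25 receptor genes over 100 kb, H3K27me3 was called at an end of 60.0%, Ezh2 of 12% and Runx1 of 0. The 2429 protein-coding genes over 100 kb had 44.7%, 25.9% and 38.0% for the same antibodies. Among the 17 shorter receptor genes the shares were 58.8%, 29.4% and 0, against 28.8%, 17.5% and 46.2% of all shorter genes. Within both length classes the mark was therefore called more often, and Runx1 less often, at receptor genes than over all genes, while Ezh2 lay below the background in the long class and above it in the short one.

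H3K27me3 and Ezh2 were called more often at the start of a gene than at its far end. Of the 28 genes with a strand in the promoter table, H3K27me3 was called at the start of 16 (57.1%), against 25.1% of all genes with a strand. At the far end it was called at 4 (14.3%), against 17.8%. Ezh2 was called at the start of 6 (21.4%), against 14.3%, and at the far end of 1, Grm2, against 7.57%. Runx1 was called at 0 starts, against 43.3%, and at 0 far ends, against 8.57%. In windows 1 kb either side of every annotated transcript start, chosen after seeing the data, the counts were 17 for H3K27me3 (26.0% of all genes), 7 for Ezh2 (15.2%) and 1 for Runx1 (46.1%).

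Among the AMPA receptor genes, which encode the channels of fast excitation, the mark was called at 2 of 4. Gria1 carried H3K27me3 at both ends, with folds of 2.53 and 2.34 in replicates 1 and 2 at the stronger. Gria4 carried it at its start with 2.22 and 1.78. Gria2 and Gria3 had no H3K27me3 peak at an end in either replicate, and Ezh2 was called at none of the 4. The delta subunit gene Grid1 was called for no antibody at an end.

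Of the 5 kainate receptor genes 3 carried the mark, and none Ezh2. Grik3 had H3K27me3 folds of 2.67 and 2.22 (mean 2.44 ± 0.312, SD, n = 2) and was called at both ends. Grik4, a high-affinity kainate subunit, had 2.45 and 2.14, at the far end. Grik1 had 2.14 and 1.88. Replicate 1 was the higher in each of these, and Grik2 and Grik5 were called at neither end.

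The NMDA receptor genes encode channels that mostly need both glutamate and glycine to open, and 4 of 7 were marked. Grin2b, the subunit prominent in the developing brain, had the highest mean H3K27me3 fold at an end of all 42 genes, with 3.61 and 2.71 (mean 3.16 ± 0.636, SD, n = 2), and was called at both ends. Grin2a had 2.32 and 1.88 and no Ezh2 call. Grin2d had 2.44 and 2.16 for the mark and the second-highest mean Ezh2 fold at a called end, with 3.95 and 2.72 (mean 3.34 ± 0.867, SD, n = 2). Grin1 had 2.26 and 1.92 for the mark and 2.48 and 1.76 for Ezh2, on the promoter printed above. Grin2c, Grin3a and Grin3b had no call at an end.

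The metabotropic receptor genes were called more often for the mark than the AMPA, delta, kainate, NMDA or GABA-A receptor genes. H3K27me3 was called at 7 of 8 and Ezh2 at 4 of 8. Grm8, an autoreceptor of group III, had the highest Ezh2 folds at a called end among the 42 genes, 4.86 and 3.43 (mean 4.15 ± 1.01, SD, n = 2). Its H3K27me3 folds were 2.40 and 2.09. Grm5 of group I had Ezh2 at 1.96 and 3.01, higher in replicate 2, and the mark at 2.51 and 1.73, higher in replicate 1. Grm6, the receptor of retinal ON bipolar cells, had Ezh2 at 2.34 and 2.32 and the mark at 1.89 and 1.94, so that replicates nearly coincided.

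Grm2 and Grm3, the group II receptors, both carried the mark. Grm2 had it at its far end with folds of 2.31 and 1.73, beside Ezh2 at 2.56 and 2.16. Grm3 had it at its start with 2.75 and 2.48 (mean 2.61 ± 0.191, SD, n = 2) and no Ezh2. Grm4 carried the mark at both ends with 2.35 and 2.19, and Grm7 at its start with 1.82 and 1.87, the second-lowest mean fold of the called genes.

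The GABA-A receptor genes were called for the mark at 8 of 15 and for Ezh2 at 2. Among the alpha subunit genes, Gabra3 had the mark at 2.2 and 2.08 and Ezh2 at 3.45 and 3.01 (mean 3.23 ± 0.310, SD, n = 2). It lies on the X chromosome, where 11.0% of all genes were called for the mark and 5.28% for Ezh2. Gabra2 had the lowest mean H3K27me3 fold of the called genes, with 1.67 and 1.96, and Gabra5 and Gabra6 had no call.

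Gabra4 and the beta subunit gene Gabrb1 face each other head to head, and the same peak called both, with folds of 2.07 and 2.04. Gabrb2 had 2.30 and 2.22. None of the 3 gamma subunit genes was called for any antibody at an end. Of the rho subunit genes, Gabrr1 had H3K27me3 at 2.63 and 1.95. Gabrr3 had it at 2.26 and 2.19 beside Ezh2 at 1.64 and 2.43, the lowest mean Ezh2 fold of the called genes. This Ezh2 call was weak, with -log10 q of 0 in replicate 1 and 1.06 in replicate 2. Grid2ip carried the mark at both ends, at 3.01 and 2.36 (mean 2.69 ± 0.462, SD, n = 2).

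**Figure D2:**
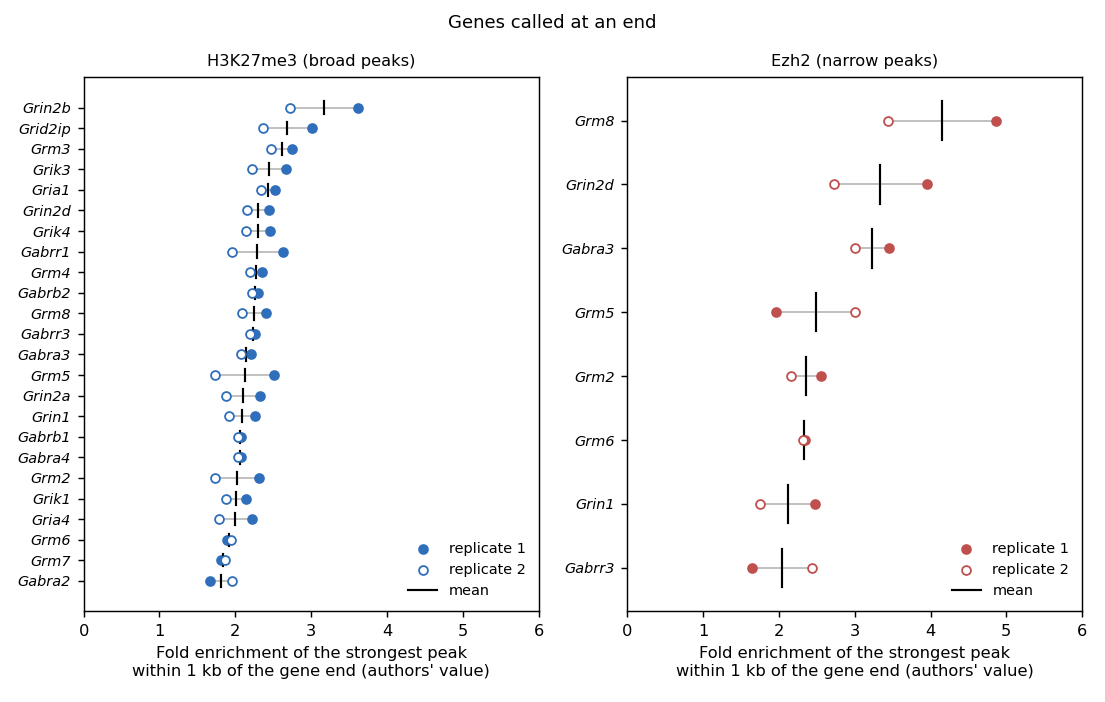
Fold enrichment of the strongest peak at a called gene end, for 24 of the 25 genes called for H3K27me3 (left) and the 8 called for Ezh2 (right); filled points are replicate 1, open points replicate 2 and vertical bars their mean. H3K27me3 means run from 1.81 in Gabra2 to 3.16 in Grin2b, and Ezh2 means from 2.04 in Gabrr3 to 4.15 in Grm8.

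These were weak peaks by the authors' own values. The median fold of the called genes was 2.23 for H3K27me3, against 2.29 over all called genes, and 2.42 for Ezh2, against 2.96. With peaks limited to a q of at most 0.01, H3K27me3 was called at 1 receptor gene (2.38%), against 3.02% of all genes, and Ezh2 at 2 (4.76%), against 8.08%. Grid2ip kept its mark with -log10 q of 5.96 and 2.02, just inside the limit, while Grin2b had 5.42 and 1.96, just outside it. For Ezh2, Grm8 (9.11 and 3.29) and Grin2d (8.34 and 2.42) were kept. At a q of at most 1e-05 none was called for either, against 0.425% of all genes for H3K27me3 and 4.58% for Ezh2. Runx1 stayed at 0 at both limits, against 42.3% and 39.0% of all genes.

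Among the 10000 strongest peaks of each list, H3K27me3 was called at 4 genes (9.52%), Grid2ip, Grin2b and Grin2d among them, against 5.90% of all genes. Ezh2 was called at 1, Grm8, against 5.88%, and Runx1 at 0, against 22.4%. The share of marked ends was thus above the background in the full lists, while its share among the strongest peaks rests on 4 genes. At a q of at most 0.01 the mark, called at 1 gene (2.38%), was near the 3.02% of all genes. The Ezh2 share at that limit, 4.76% against 8.08%, rests on 2 genes. Runx1 was called at 0 genes there, against 42.3% of all genes. In replicate 1 alone, 30 genes held H3K27me3 at an end (38.6% of all genes), 15 Ezh2 (27.3%) and 1 Runx1 (48.1%). In replicate 2 alone the counts were 26 (32.6%), 10 (22.6%) and 0 (48.0%).

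Wider windows raised the counts of all 3 antibodies. Within 500 bp of an end the counts were 21 genes for H3K27me3 (27.2% of all genes), 4 for Ezh2 (14.7%) and 0 for Runx1 (42.1%). Within 2000 bp they were 27 (34.9%), 10 (23.6%) and 4 (49.7%), and within 5000 bp 32 (44.4%), 13 (32.4%) and 7 (57.4%). The genes reached by Runx1 within 2000 bp were Gabrr3, Grik5, Grin2d and Grm4.

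Within the gene spans, most receptor genes held at least 1 region of H3K27me3, many of them over little of their length. A region of both replicates lay in 36 of the 42 genes (85.7%), against 36.8% of all genes. Ezh2 regions lay in 22 (52.4%), against 24.6%, and Runx1 regions in 15 (35.7%), against 56.5%. In 11 genes the mark lay within the span and at neither end (26.2%), against 7.30% of all genes. Only 4, Gabra6 and Grin3b among them, had neither an end call nor a region of any antibody, against 19.0% of all genes.

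Longer spans give more room for regions, so densities were compared as well. The 42 genes held 458 H3K27me3 regions, 135 Ezh2 regions and 22 Runx1 regions, counted once per gene. Per 100 kb of span this was 3.81 for H3K27me3, 1.12 for Ezh2 and 0.183 for Runx1, against 4.72, 3.16 and 2.84 over all genes. Over the 42 genes the regions were thus below the background in density for all 3 antibodies. For H3K27me3 this turned with length. Receptor genes over 100 kb had 3.64 regions of the mark per 100 kb, against 4.73 in all such genes, and those of 100 kb or less had 6.21, against 4.70.

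The median share of a span covered by H3K27me3 was 7.41% in replicate 1 and 2.80% in replicate 2, against 0 over all genes in each. With genes over 100 kb alone, the mean of the replicates had a median of 2.97% in receptor genes and 2.90% in all genes, values that nearly coincide. With genes of 100 kb or less it was 10.6%, against 0. A mean share above 1% was found in 31 receptor genes (73.8%), against 41.4% of all genes, and above 10% in 14 (33.3%), against 30.5%. A share above 25% was found in 9 (21.4%), against 22.1%, and above 50% in 5 (11.9%), against 12.3%. No base was covered in 4, namely Gabra6, Gabrg1, Gria3 and Grin3b, against 53.8% of all genes. The receptor genes thus lay far from the background in how few lacked the mark, and near it in how many were largely covered. The first contrast is with mostly shorter genes, and the share without a covered base was not split by length. Among genes over 100 kb, a region of the mark lay in 92% of receptor genes, against 65.6% of all. Among genes of 100 kb or less it lay in 76.5%, against 33.2%.

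The 5 genes covered over more than 50% were of different classes. Grm4, a presynaptic group III receptor, was covered over 70.3% and 51.8% of its 91.4 kb in replicates 1 and 2. Grid2ip had 64.7% and 45.2% of 34.4 kb, and Grm2, the group II receptor, 70.2% and 39.3% of 11.6 kb. Grik4 had 67.0% and 41.7% of 426.8 kb, which made it the longest of them, and Gabrr1 had 67.2% and 37.2% of 31.0 kb. Replicate 1 was higher in all 5.

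Just below them stood Grik3 with 65.9% and 33.6%, and the NMDA genes Grin2c with 57.5% and 40.1% and Grin2d with 57.9% and 37.3%. Grin2b had 35.2% and 15.4%. Grin2c, a subunit of cerebellar NMDA receptors, was thus covered over much of its 18.1 kb without a call at either end. The next values were 20.7 ± 17.0% in Gabrr2, 19.0 ± 11.1% in Gria1 and 14.8 ± 7.45% in Grid1 (SD, n = 2). By class, the median was 8.61% over the 26 glutamate receptor genes and 1.28% over the 15 GABA-A receptor genes. Among the GABA-A genes the 3 rho subunit genes had a median of 20.7% and the other 12 of 0.755%.

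**Figure D3:**
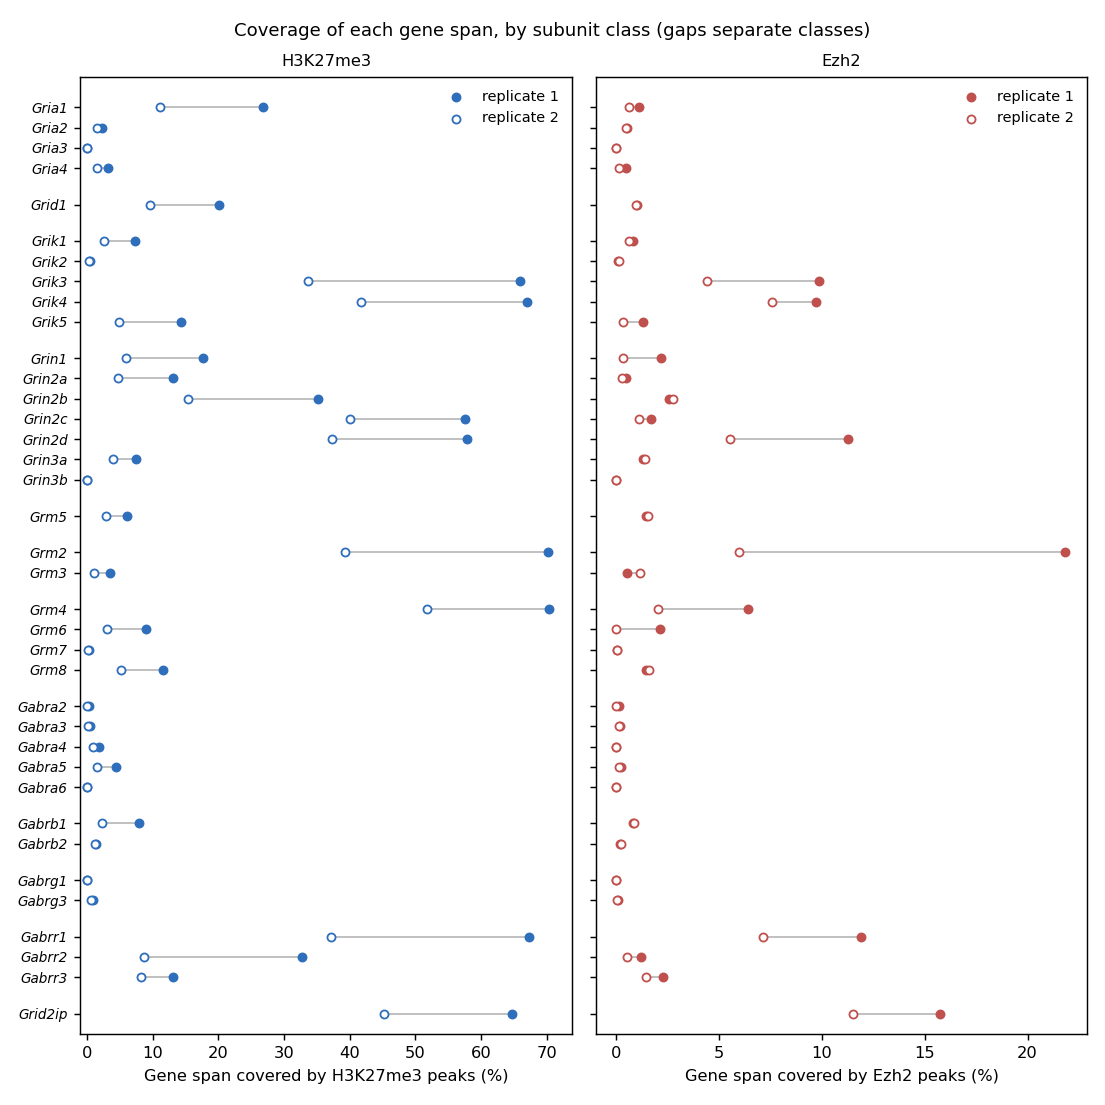
Percent of the span covered by H3K27me3 peaks (left) and Ezh2 peaks (right) in 37 of the 42 genes, in receptor classes separated by gaps; filled points are replicate 1, open points replicate 2 and grey lines join them. Grm4, Grm2, Grik4, Gabrr1, Grik3 and Grid2ip reach 64.7% or more for H3K27me3 in replicate 1, while the alpha, beta and gamma subunit genes drawn reach at most 7.85%.

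The widest stretches of the mark lay in the same genes. Grm4 held a region of 38855 bp (chr17:27422479-27461333) that begins 0.092 kb inside its lower end. Grik4 held one of 24575 bp deep in the gene (chr9:42700507-42725081), which touched 3 Ezh2 regions. Grik3 held one of 22064 bp (chr4:125506420-125528483), which touched 5. Another Grik3 region (chr4:125475338-125490366) stops 0.080 kb before the promoter sequence printed above, and the nearest mark of replicate 2 is 0.493 kb away. The Grik4 promoter, with 42 CpG, likewise carried no peak, with the nearest mark at 0.729 kb and 2.03 kb in replicates 1 and 2.

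**Figure D4:**
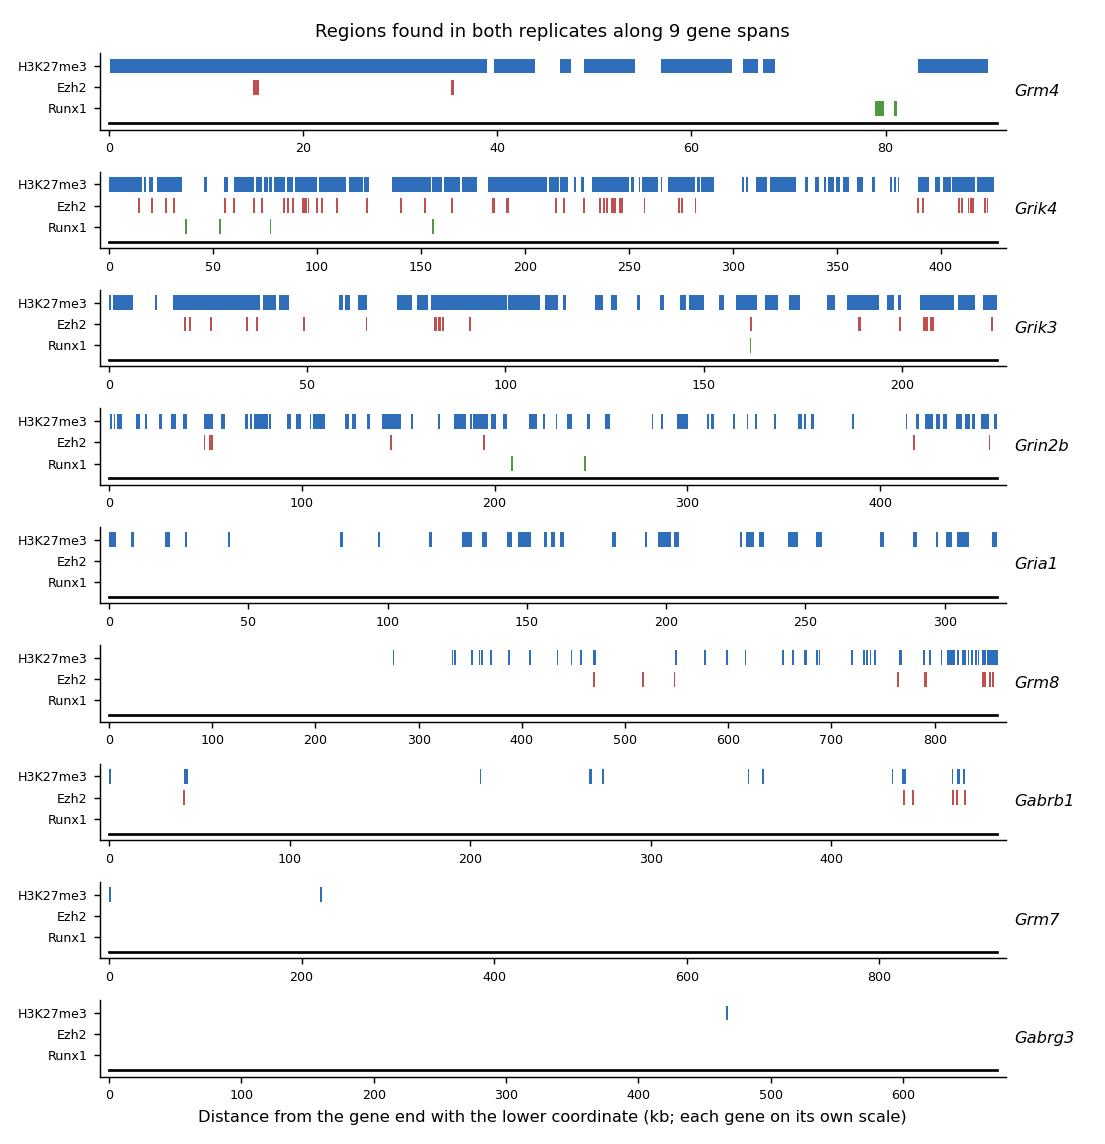
Regions found in both replicates along 9 receptor gene spans, drawn from the end with the lower coordinate in kb, each gene on its own scale; blue bars are H3K27me3, red bars Ezh2 and green bars Runx1. In Grm4, Grik4 and Grik3 H3K27me3 fills long stretches, whereas Grm7 has 2 regions and Gabrg3 has 1.

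Some marked spans were part of wider marked territory, and others had sparser flanks. The 50 kb on each side of Grik3 were covered over 81.4% and 52.4% in the 2 replicates, above the gene itself. The flanks of Grik4 had 38.1 ± 17.9%, those of Grm4 36.0 ± 11.9% and those of Grm2 35.2 ± 12.3% (SD, n = 2), the last almost all on one side. Grid2ip had 54.9 ± 13.8% in its span and 7.05 ± 7.48% in its flanks. Grin2d had 47.6 ± 14.5% and 8.83 ± 2.90%, and Grin2b 25.3 ± 14.0% and 8.91 ± 4.28%. In these 3 genes the mark was thus largely within the gene.

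Coverage was denser near the ends than inside. Over the 41 receptor genes longer than 10 kb, H3K27me3 covered 23.9% and 12.5% of the end windows and 11.7% and 5.84% of the interior in replicates 1 and 2. For all genes over 10 kb the means were 14.6 ± 4.05% at the ends and 11.8 ± 4.18% inside (SD, n = 2). In the 27 with a strand, the start window was covered over 34.5% and 17.4% and the far window over 17.4% and 8.89%. For all such genes with a strand the values were 20.8% and 14.6% at the start and 12.5% and 7.80% at the far end. Ezh2 covered 4.39% and 1.99% of the end windows and 1.29% and 1.03% of the interior, and again replicate 1 was the higher. For all genes over 10 kb Ezh2 covered more in both places, 6.04% and 4.72% at the ends and 2.66% and 2.30% inside.

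Ezh2 itself formed narrow islands within the marked genes. It covered 21.8% and 5.99% of Grm2, 15.7% and 11.5% of Grid2ip, 11.9% and 7.14% of Gabrr1, 9.71% and 7.57% of Grik4, and 11.3% and 5.50% of Grin2d in replicates 1 and 2. Over all 42 genes the median was 0.860% and 0.409%, against 0 over all genes, which are mostly shorter. With genes over 100 kb alone, the mean of the replicates had a median of 0.495% in receptor genes and 0.480% in all genes. With genes of 100 kb or less it was 1.05%, against 0. Grik4 alone held 47 of the 135 Ezh2 regions and Grik3 held 18, so nearly as many lay in these 2 kainate receptor genes as in the other 40. The region with the highest mean fold was in Grik4 (chr9:42755685-42756646), with 5.25 and 4.03. The highest in Grik3 (chr4:125697763-125698274) had 5.72 and 2.65, a wide gap between replicates. Grin3a, a glycine-binding subunit, had one with 2.80 and 4.51, higher in replicate 2.

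In the full lists, most Ezh2 regions touched the mark, and most regions of the mark lay away from Ezh2. Of the 135 Ezh2 regions 120 touched an H3K27me3 region (88.9%), against 91.3% over all genes. The share was 54.6% with replicate 2 alone, and 0 of 9 regions at a q of at most 0.01. Of the 457 distinct H3K27me3 regions 77 touched Ezh2 (16.8%), against 29.8% over all genes. One of the exceptions was the strongest Ezh2 region inside Grm8 (chr6:27822269-27822859; folds 3.66 and 3.87), which touched no mark. Across the 42 genes the covered shares of H3K27me3 and Ezh2 had a Spearman rho of 0.917, and across all genes 0.809. Genes share libraries, and rho is a description here.

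Most GABA-A genes lie in clusters, and the mark was unevenly spread over them. The pair Gabrr2 and Gabrr1 on chromosome 4, a stretch of 105.9 kb, was covered over 40.4% and 18.4% in replicates 1 and 2, with 14 regions of the mark and 4 of Ezh2. The chromosome 5 cluster of Gabrg1, Gabra2, Gabra4 and Gabrb1 had 3.54% and 1.27%. For the mark 3 of its 4 genes were called, against 31.6% of all genes on chromosome 5. Gabra4 and Gabrb1 were called by the same peak, and Gabra2 had the lowest mean fold of the called genes.

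The X cluster of Gabre, Gabra3 and Gabrq had 1.98% and 0.132%, a wide gap between replicates. No gene of these 3 clusters was called for Runx1 at an end.

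Runx1 was found inside some receptor genes, outside the windows at their ends. There were 22 regions in 15 genes, and 15 of them had a q of at most 0.01 in both replicates. Restricted to such regions, 12 genes remained (28.6%), against 52.9% of all genes, and at 1e-05 9 (21.4%), against 48.8%. The same limits left Ezh2 regions in 6 and 0 genes, against 12.2% and 5.90%, and H3K27me3 regions in 1 and 0, against 4.71% and 0.544%. Runx1 regions were therefore the ones least affected by the limit.

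The strongest Runx1 region was in Gabrr3 (chr16:59459223-59459867), 1.87 kb inside its far end, with folds of 37.4 and 44.2 (mean 40.8 ± 4.80, SD, n = 2). The nearest end of another gene, Riox2, was 12.2 kb away. Grm4 had a region with 12.8 and 16.7, 11.6 kb inside the gene. Grik4 had 4, the strongest with 8.90 and 16.2 and with 10.8 and 13.2, and Grin1 had one with 8.61 and 11.96. Replicate 2 was the higher in each of these, and the folds in Gabrr3 stood above those of all the other regions in both replicates.

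Other Runx1 regions were weaker. Grik2, a kainate subunit, had one with 8.86 and 9.15, and Gria3 one with 6.48 and 9.81, in a gene that carried no mark at all. Grik3 had one with 8.33 and 6.55 that touched the mark. The region of Grik5 had 4.41 and 3.75 and lay within 1 kb of the annotated transcript start of that gene, 2.54 kb inside its end. The lowest was in Grin2a, with 2.204 and 2.273. In all, 5 of the 22 regions touched H3K27me3 (22.7%), against 6.01% over all genes, and 3 of the 5 were in kainate receptor genes. The share over all genes includes regions at gene ends, whereas the 22 lay outside the windows at the ends, so the shares are not like for like. Of the 5, the region in Gria2 and 1 in Grik4 were weak, with -log10 q of 1.68 and 0.0777 in replicate 1.

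**Figure D5:**
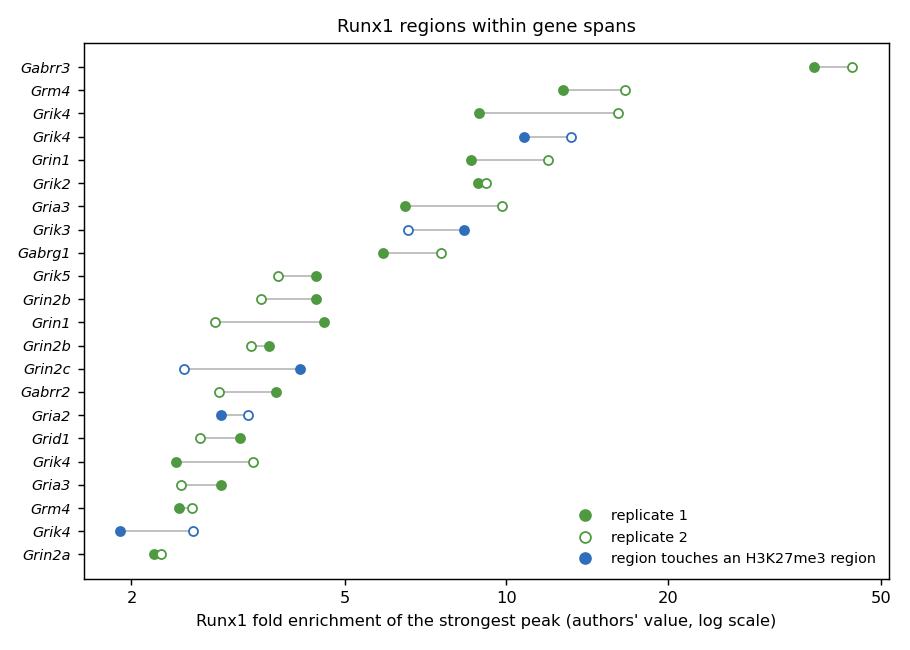
Fold enrichment of the 22 Runx1 regions within receptor gene spans, on a log scale, one row per region; filled points are replicate 1, open points replicate 2 and blue marks regions that touch an H3K27me3 region. The Gabrr3 region stands at 37.4 and 44.2, and all others reach at most 16.7.

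Promoter sequence and the marks were compared over the 36 sequences. The median number of CpG was 11.5, against 13 over all 21263 promoters. H3K27me3 of both replicates lay on 10 promoters (27.8%), against 18.8% of all promoters. These 10, of 8 genes, had a median of 16 CpG and a range of 10 to 33. Over all genes, promoters with the mark had a median of 11, below the 13 of all promoters. The other 26 of the 36 had a median of 9.5 and a range of 0 to 50. The 2 promoters richest in CpG, Grik3 and Grik4, were among those without a peak. Ezh2 lay on 4 promoters of 3 genes, Grin1, Gabrr3 and Grid2ip (11.1%), against 8.62% of all promoters, and Runx1 on none, against 40.3% of all promoters. The RUNX motif TGTGGT, on either strand, occurred in 5 of the 36 (13.9%), against 15.0% of all promoters.

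A list of 80 other genes of the same transmitter systems was set beside the receptors. H3K27me3 was called at an end of 50 of the 80 (62.5%), against 30.6% of all genes, Ezh2 at 33 (41.2%), against 18.4%, and Runx1 at 24 (30.0%), against 45.3%. The same rule called 25, 8 and 0 of the 42 receptor genes. For the 6 further GABA receptor subunits the counts were 5, 4 and 1. Gabbr1, a subunit of the metabotropic GABA-B receptor, had Ezh2 folds of 9.99 and 4.91 and Runx1 folds of 32.2 and 27.2, and its Ezh2 folds were above the end folds of each of the 42 genes. Gabrd, the delta subunit of GABA-A receptors outside synapses, had the mark over 86.3% of its span. The 5 glycine receptor genes were called for H3K27me3 at 2, Glra1 and Glrb, and for the other antibodies at 0.

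Transporter genes were called most often for the mark, 12 of 13, with Ezh2 at 8 and Runx1 at 5. Slc17a7, which loads glutamate into vesicles, had Ezh2 at 5.72 and 3.92 and the mark at 3.31 and 2.65. Of 8 genes of synthesis and breakdown, 4 had the mark, 4 Ezh2 and 2 Runx1. Aldh5a1, which breaks down a product of GABA, had Ezh2 at 12.03 and 10.9 and the mark at 3.71 and 3.14.

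Auxiliary subunit genes, whose products bind and tune the receptors, were called for the mark at 16 of 25, for Ezh2 at 10 and for Runx1 at 5. Kctd12, a partner of GABA-B receptors, had Runx1 at 46.1 and 40.2. The 23 scaffold genes had the mark at 11, Ezh2 at 7 and Runx1 at 11. Grip1, which anchors AMPA receptors, had Ezh2 at 11.5 and 12.5 and the mark at 4.78 and 3.43. Shank1 and Homer3, scaffolds of the excitatory synapse, had Runx1 at 89.8 and 73.9 and at 77.2 and 63.8. Runx1 was thus called at the ends of genes of each of these groups but the glycine receptors, and at none of the 42 receptor genes.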

How the data were processed

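Peak lists of Ezh2, H3K27me3 and Runx1 chromatin immunoprecipitation in EML_C1 cells were used, 2 replicates each. Bowtie2 2.2.1, Picard, SAMtools, MACS2 2.0.10 and mm10 are named per the submitters' processing notes, without role or parameters. The deposited lists give for each peak a score (not used), a fold enrichment as a linear ratio, -log10 p and -log10 q values, and, for narrow peaks, a summit offset (not used). Depth is unknown, so no interval was computed.

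Genes and spans came from RefSeq on GRCm38.p6. Calls needed a peak of both replicates in the same window, 1 kb either side of a gene end, with an overlap of at least 1 bp; peaks that overlap or abut were merged into regions, kept where both replicates contributed. Coverage is the percent of span bases under peaks. The calls were computed over all protein-coding genes, and the scripts were checked on simulated peaks. Values were computed in Python 3.11.15 with NumPy 2.4.6 and SciPy 1.17.1 and drawn with Matplotlib 3.10.9.

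The genes, the lists and the alternatives were chosen with earlier results of these data known. Replicate values are given for the 5 genes highest by fold or coverage per antibody, genes kept at a q of at most 0.01, genes of 3 GABA-A clusters and up to 2 genes per list and antibody. Other members are named with their values where a class is described, and the single Runx1 regions were chosen after their values were seen. Alternatives were the window, the q limit, the 10000 strongest peaks, 1 replicate alone, gene starts alone and annotated transcript starts. Results of some single genes are not reported here, though the counts and medians over the 42 genes include them.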

Additional observations from a re-analysis of the deposited data

How the results depend on the processing

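The full lists hold many weak peaks, depth is unknown, and spread over 2 replicates is poorly known. No paired analysis was possible because the results come from no test.

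At gene ends, 8 genes had Ezh2, 25 H3K27me3, 0 Runx1, 8 Ezh2 and the mark, 17 the mark without Ezh2 and 17 none of the antibodies. With 1 replicate alone these counts ranged from 10 to 15, 26 to 30, 0 to 1, 9 to 15, 15 to 17 and 12 to 15, in that order. At a q of at most 0.01 they were 2, 1, 0, 0, 1 and 39, at 1e-05 0, 0, 0, 0, 0 and 42, and among the 10000 strongest peaks 1, 4, 0, 0, 4 and 37, where fewer peaks enter. Within 500 bp, 4 genes had Ezh2 and 3 both. Within 2 kb, 4 had Runx1. Within 5 kb, 13 had Ezh2, 7 Runx1, 13 Ezh2 and the mark, and 10 none. At the start alone, over 28 genes, 16 had the mark and 10 the mark without Ezh2. At annotated transcript starts, an alternative chosen after seeing the data, 1 had Runx1, 10 the mark without Ezh2 and 10 none. Without Grid2ip, 24 of 41 had the mark.

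Within spans, 22 genes had Ezh2, with 32 to 35 in 1 replicate alone, 6 at a q of at most 0.01, 0 at 1e-05 and 1 among the strongest peaks. The mark, in 36 genes, was in 36 to 38, 1, 0 and 6. Runx1, in 15, was in 26 to 28 in 1 replicate alone, 9 at 1e-05 and 4 among the strongest. The median coverage by Ezh2, 0.816%, was 0.409% to 0.860% in 1 replicate alone, 0.0126% at a q of at most 0.01 and 0 at 1e-05. That by the mark, 5.04%, was 2.80% to 7.41%, 0 and 0, and that by Runx1, 0.0864%, was 0.0618% to 0.0923%, 0 and 0.

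Of the Ezh2 regions 88.9% touched the mark, with 54.6% to 76.6% in 1 replicate alone. Of the mark's regions 16.8% touched Ezh2, with 21.6% to 22.0%. Both were 0% at a q of at most 0.01, over 9 and 1 regions, and among the strongest peaks, over 2 and 7 regions. At 1e-05 no region was left to compare. The 33 fold values at called ends moved by less than 1 SD with 2 kb windows and with the mean fold of the window, and so did the 3 that remain at a q of at most 0.01.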
